A study of Homo sapiens with 6 samples.

Results

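NRF2, encoded by NFE2L2, and 8 genes of its antioxidant response were examined in RNA from LoVo cells. The 9 genes were taken by symbol from the deposited table, and they were NFE2L2, KEAP1, HMOX1, NQO1, GCLC, GCLM, TXNRD1, SRXN1 and OSGIN1. They are 9 of 19223 gene symbols in the table and hold 28 of its 45006 RefSeq transcripts.

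NRF2 is a transcription factor that is made continuously and, in unstressed cells, is bound by KEAP1 and handed to a CUL3 ubiquitin ligase for degradation. Oxidants and electrophiles modify cysteines of KEAP1, NRF2 then accumulates, pairs with a small MAF protein and binds antioxidant response elements near its target genes. Those targets make glutathione, reduce thioredoxin, detoxify quinones and break down haem. Much of the control of NRF2 therefore acts on its protein, which RNA libraries do not measure.

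LoVo cells are a line grown from a human colorectal adenocarcinoma, and DCC-2036 (rebastinib) is a tyrosine kinase inhibitor. Control cells received vehicle without DCC-2036, and treated cells received 2.5 μM DCC-2036, with 3 libraries in each group. The labels give 48 h for both groups, while a figure legend of the study gives a shorter time. The culture medium named in the labels also differs from that in the study's methods. The labels do not say that the libraries came from separate cultures, so p-values measure only the spread between these samples, which may be technical.

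Each value is a signal per transcript that had already been adjusted by the authors to a common depth, so the read depth behind it is unknown. The column totals of this adjusted signal were 38997229, 39956227 and 40587145 in Control replicates 1, 2 and 3. In DCC-2036 replicates 1, 2 and 3 they were 43279603, 45957597 and 48023306. All 3 treated totals were above all 3 Control totals, and replicate 3 of DCC-2036 had the highest. How the adjustment was made is not given in the sources used here, and the adjusted totals are not equal.

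The label of the cells was checked against marker genes. Of 12 colonic epithelial markers, 8 reached 10 in 3 or more libraries. The summed signal of the 12 was 106251, 110011 and 116909 in Control, against 149714, 165003 and 190200 in DCC-2036, with KRT8 the most abundant. EPCAM lay between 4524 and 5961 and CDX2 between 213 and 365 over the 6 libraries. CDX1 was listed at 0 in every library, and VIL1, CEACAM5 and GPA33 stayed below 10. With DCC-2036, CDH1 and KRT8 were called higher (adjusted p = 0.000354 and 0.00287, limma) and KRT20 lower (adjusted p = 0.00427), by the test described next. The part of these marker changes in the values of the antioxidant genes was not tested.

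Markers of other cell types were low, except CD68 (205 to 280) and COL1A1 (353 to 520), which reached the range of CDX2. PTPRC, the pan-leukocyte marker, was listed at 0 in all 6 libraries, and ERG, an endothelial factor, was also listed at 0. The 6 leukocyte markers summed to 228, 274 and 263 in Control, against 222, 252 and 311 in DCC-2036, nearly all of it CD68. The 6 fibroblast markers summed to 440, 412 and 370 in Control, against 516, 452 and 553 in DCC-2036, most of it COL1A1. Sums of the 5 endothelial markers were 14.2, 10.5 and 15.7 in Control, against 41.3, 15.4 and 20.3 in DCC-2036.

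Each symbol was represented by its most abundant transcript, by the mean of all 6 libraries. Groups were compared with limma on log2(signal + 1), two-sided, with Benjamini-Hochberg adjustment over the 12725 symbols that reached 10 in 3 or more libraries. A gene is called at an adjusted p under 0.01, and fold changes are DCC-2036 minus Control on that log2 scale, which understates changes of low genes. Exact permutation tests of 3 libraries against 3 cannot go below p = 0.1.

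All 9 genes passed the filter on low values. HMOX1, GCLC, NFE2L2 and TXNRD1 rose with DCC-2036, so 4 of 9 were called higher, beside 19.2% of all tested genes. None of the 9 was called lower by limma, beside 22.7% of all genes, although KEAP1 was lower at an unadjusted p under 0.05. The 4 called genes with NQO1 and GCLM, 6 in all, had every treated value above every Control value, a pattern found in 32.9% of all genes. KEAP1 alone had every treated value below every Control value, against 38.1% of all genes. SRXN1 and OSGIN1 overlapped between the groups.

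The median log2 fold change of the 9 genes was 0.61, and that of all tested genes was -0.092. These medians were 0.42 and -0.281 with the libraries scaled to equal column totals, and 0.68 and -0.0171 with median-of-ratios scaling. Each value below thus depends on the scaling, which moves all genes together, and which scaling is right was not tested. Among all called genes, 45.8% were higher as deposited, 33.6% with equal totals and 49.9% with median-of-ratios scaling. The number of members called higher depended on the processing. It was 2 with equal totals, with upper-quartile scaling, with a pseudocount of 0.1 and without the filter, 4 with median-of-ratios scaling, and 6 at an adjusted p under 0.05, where KEAP1 was also called lower. The calls of all genes moved as well. Of all tested genes, 1716 of 12739 were called higher with equal totals, 2168 of 12727 with upper-quartile scaling, 2409 of 12725 with the smaller pseudocount, 1749 of 16667 without the filter and 2647 of 12722 with median-of-ratios scaling. At an adjusted p under 0.05, 3630 of 12725 were called higher and 4290 lower.

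Leaving out Control replicate 1, 2 or 3 or DCC-2036 replicate 2 left 1 member called higher, while 6 were called without DCC-2036 replicate 1 and 3 without DCC-2036 replicate 3. Without DCC-2036 replicate 1 or replicate 3, 1 member was called lower. The same 4 omissions that left 1 member also left 929 to 968 of all genes called higher, against 2442 with all libraries, and 1502 to 1650 called lower, against 2887. Without DCC-2036 replicate 1, 2717 of all genes were called higher and 3444 lower, and without DCC-2036 replicate 3, 2501 higher and 3198 lower.

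**Figure D1:**
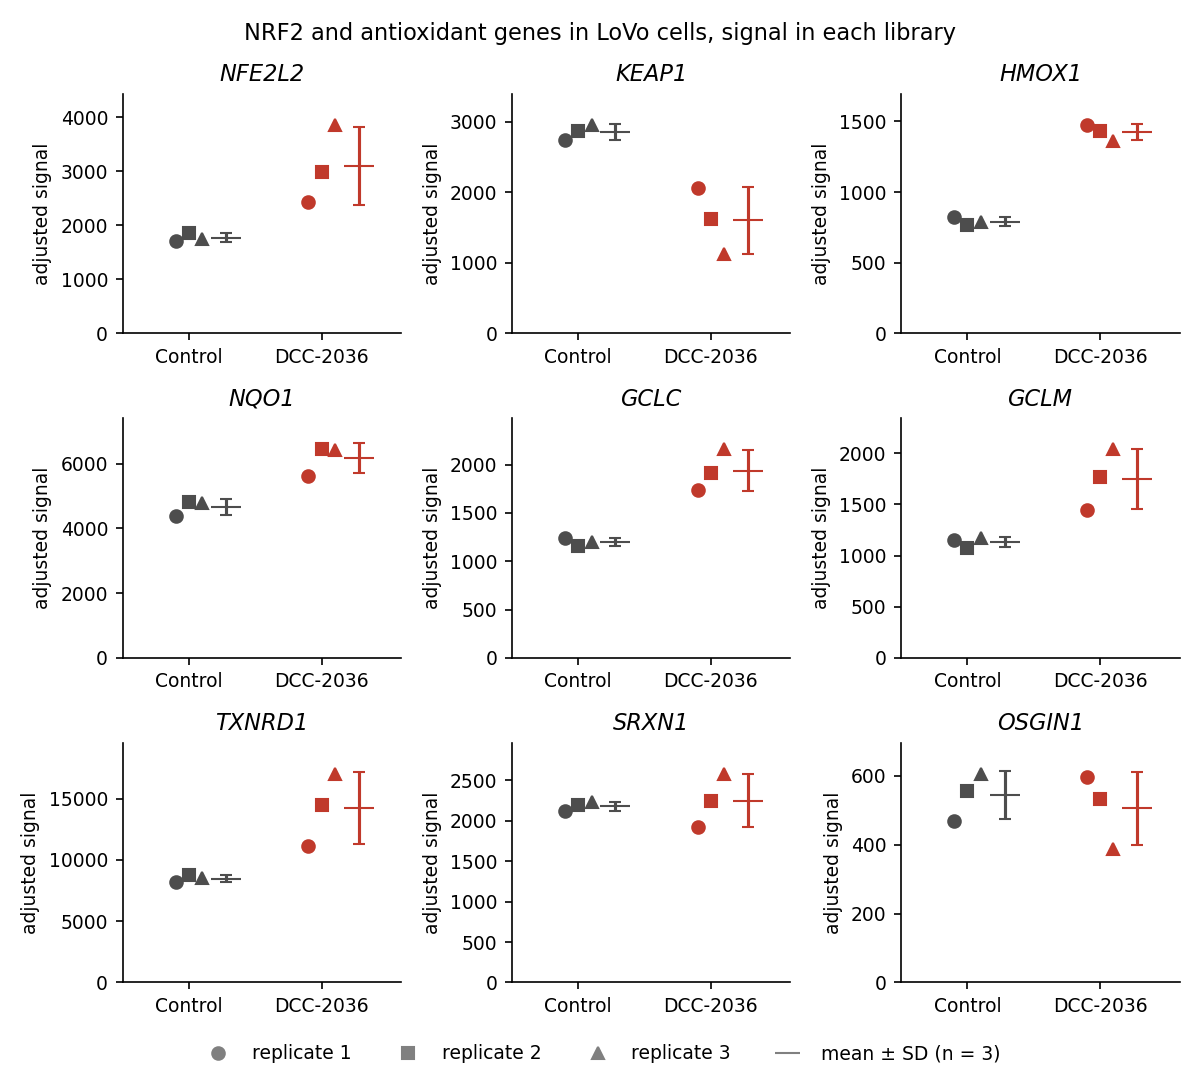
Adjusted signal (y axis, from 0) of the 9 genes in each library, with Control in grey and DCC-2036 in red, a marker shape per replicate, and the mean ± SD (n = 3) beside the points. HMOX1 has tight groups, 763 to 822 against 1362 to 1476, whereas NFE2L2, TXNRD1 and KEAP1 spread widely with DCC-2036, and SRXN1 and OSGIN1 overlap.

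NFE2L2 encodes NRF2 itself. Its signal was 1701, 1864 and 1749 in Control, against 2431, 2986 and 3862 in DCC-2036 (transcript NM_006164.4). The treated libraries were all higher, and they differed among themselves more than the Control libraries, with replicate 3 the farthest from Control. The means were 1771 ± 84.0 and 3093 ± 721 (SD, n = 3), and the SD of the log2 values was 0.07 in Control and 0.33 in DCC-2036. NFE2L2 rose by a log2 fold change of 0.78 (SE 0.18, 95% interval 0.35 to 1.21, adjusted p = 0.00961, limma). That p lies just under the limit. It was above the limit without Control replicate 1 (0.0376), Control replicate 2 (0.0291), Control replicate 3 (0.0358) or DCC-2036 replicate 2 (0.0318), and with equal column totals (0.0147), upper-quartile scaling (0.012), a pseudocount of 0.1 (0.0104) or no filter (0.0207). NFE2L2 was called in 8 of 17 settings. Over all of them the log2 fold change ranged from 0.59 to 0.94 and the adjusted p from 0.00236 to 0.0376. In bulk RNA, more cells with a high level and more RNA in every cell cannot be told apart.

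KEAP1 encodes the adaptor that holds NRF2 for degradation. In Control it had 2744, 2863 and 2957, and in DCC-2036 2064, 1615 and 1125 (transcript NM_203500.1). The treated values were all below Control, with replicate 3 the lowest of the 6 libraries and replicate 1 the nearest to Control. The means were 2855 ± 107 and 1601 ± 470 (SD, n = 3). The log2 fold change of -0.88 (SE 0.22, 95% interval -1.41 to -0.35) missed the limit (adjusted p = 0.0137, limma). It passed without DCC-2036 replicate 1 (log2 fold change -1.08, adjusted p = 0.00304) and without DCC-2036 replicate 3 (-0.64, adjusted p = 0.0075), within a range of 0.00304 to 0.0472 over all settings. NFE2L2 and KEAP1 thus lay on opposite sides of Control in all 3 treated libraries, and for both, replicate 3 of DCC-2036 stood farthest out. With equal column totals the log2 fold change of KEAP1 was -1.07 (adjusted p = 0.0128) and that of NFE2L2 was 0.59 (adjusted p = 0.0147), so neither changed direction.

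The core of the antioxidant response element, TGACNNNGC, was searched on both strands of promoter windows from RefSeq (GRCh38.p14), which run from 250 bases before to 50 bases after a gene start. Windows were given for 8 of the 9 genes, 11 windows in all, and HMOX1 had none. Of the 11 windows, 4 held the core, and 13.3% of all 35116 windows in the table did. Those 4 windows belong to KEAP1, GCLM and TXNRD1, and none of the windows of NFE2L2, NQO1, GCLC, SRXN1 and OSGIN1 held these letters. A match describes letters and is not evidence of binding. Bases outside these windows were not searched, so a window without a match does not show that the gene lacks an element.

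The 120 bases before the gene start are shown for the 4 windows, because the genes differ in direction while the windows share the core. Capitals mark each match that lies wholly inside. One KEAP1 window (chr19:10502772-10502891, minus strand) holds TGACACGGC on the strand of the gene from -54 to -46 and TGACTAAGC on the other strand from -31 to -23, counted from the start.
KEAP1: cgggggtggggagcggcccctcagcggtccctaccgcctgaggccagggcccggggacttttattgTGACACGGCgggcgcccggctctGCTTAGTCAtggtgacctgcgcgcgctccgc
The GCLM window (chr1:93909431-93909550, minus strand) holds TGACTAAGC on the other strand from -34 to -26.
GCLM: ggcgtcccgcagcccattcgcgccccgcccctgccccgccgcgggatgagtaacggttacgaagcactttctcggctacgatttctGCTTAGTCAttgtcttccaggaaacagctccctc
The first TXNRD1 window (chr12:104215659-104215778, plus strand) holds TGACTTCGC on the strand of the gene from -99 to -91, and a further match on the other strand, TGACGGAGC, crosses the start and is left in lower case.
TXNRD1 first start: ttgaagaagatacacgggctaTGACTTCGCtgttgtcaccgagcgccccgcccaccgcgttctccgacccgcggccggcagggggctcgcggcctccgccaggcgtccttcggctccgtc
The second TXNRD1 window (chr12:104286912-104287031, plus strand) holds TGACAAAGC on the other strand from -102 to -94.
TXNRD1 second start: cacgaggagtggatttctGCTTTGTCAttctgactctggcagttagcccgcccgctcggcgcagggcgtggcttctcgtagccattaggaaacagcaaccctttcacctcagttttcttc
KEAP1 and GCLM share the letters TGACTAAGC on the same side of the start, although every treated value of KEAP1 was below Control and every treated value of GCLM above it.

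HMOX1 encodes haem oxygenase 1, which opens haem to biliverdin, carbon monoxide and iron. Its 3 Control values were 822, 763 and 786, and its DCC-2036 values were 1476, 1430 and 1362 (transcript NM_002133.2). The groups were far apart, the replicates of each group lay close together, and replicate 3 of DCC-2036 was here the lowest of the treated libraries. Means were 790 ± 29.7 and 1422 ± 57.3 (SD, n = 3), so treated cells had 180% of the Control mean. HMOX1 rose by a log2 fold change of 0.85 (SE 0.09, 95% interval 0.62 to 1.08, adjusted p = 0.00079, limma), which is 0.94 above the median of all genes. It was the 1 member called in all 17 settings, with log2 fold changes of 0.66 to 0.92 and adjusted p of 0.000122 to 0.00682.

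NQO1 encodes the quinone reductase most often used to read NRF2 activity. It had 4395, 4809 and 4788 in Control, against 5632, 6444 and 6429 in DCC-2036 (transcript NM_000903.2). Every treated library was above every Control library, and replicate 1 was the lowest of each group. The log2 fold change of 0.40 (SE 0.11, 95% interval 0.15 to 0.66) missed the limit (adjusted p = 0.0168, limma). With equal column totals it was 0.21 (adjusted p = 0.0803). NQO1 was called when DCC-2036 replicate 1 was left out (0.47, adjusted p = 0.0093), within a range of 0.00443 to 0.0803 over all settings.

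GCLC and GCLM encode the catalytic and the modifier subunit of glutamate-cysteine ligase, the first and limiting step of glutathione synthesis. GCLC had 1236, 1156 and 1196 in Control, against 1737, 1911 and 2157 in DCC-2036 (transcript NM_001498.3). GCLM had 1154, 1076 and 1173 in Control, against 1444, 1763 and 2037 in DCC-2036 (transcript NM_002061.3). For both subunits all treated values were above Control, replicate 1 of DCC-2036 was the nearest to Control and replicate 3 the farthest. GCLC rose by a log2 fold change of 0.69 (SE 0.12, adjusted p = 0.00296, limma), from 1196 ± 39.6 to 1935 ± 211 (SD, n = 3). Its adjusted p passed above the limit without Control replicate 1 (0.0134), Control replicate 2 (0.0176), Control replicate 3 (0.0155) or DCC-2036 replicate 2 (0.0151), within 0.000582 to 0.0176 over all settings, and it was called in 12 of 17. GCLM, at 0.61 (SE 0.15, adjusted p = 0.0116, limma), was just above the limit, and was called with DCC-2036 replicate 1 left out (0.74, adjusted p = 0.00274), within 0.00274 to 0.047 over all settings. Whether the changes of the 2 subunits differ was not tested, and their intervals, 0.41 to 0.97 and 0.26 to 0.96, overlap.

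TXNRD1 encodes cytosolic thioredoxin reductase, which keeps thioredoxin reduced with electrons from NADPH. Signals of 8155, 8751 and 8492 were found in Control, and 11138, 14458 and 17001 in DCC-2036 (transcript NM_001261445.1). All treated libraries were higher, and they were spread out in the same order as for NFE2L2. TXNRD1 rose by a log2 fold change of 0.73 (SE 0.17, 95% interval 0.32 to 1.13, adjusted p = 0.00981, limma), from 8466 ± 299 to 14199 ± 2940 (SD, n = 3). The p lies just under the limit, and it was above it without Control replicate 1 (0.0384), Control replicate 2 (0.0319), Control replicate 3 (0.0352), DCC-2036 replicate 2 (0.0373) or DCC-2036 replicate 3 (0.0119). With equal column totals the log2 fold change was 0.54 (adjusted p = 0.0153). The call was also lost with upper-quartile scaling (0.0121), a pseudocount of 0.1 (0.0105) and no filter (0.0211). TXNRD1 was called in 7 of 17 settings, and over all settings the adjusted p ranged from 0.00156 to 0.0384.

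SRXN1 encodes sulfiredoxin, which repairs over-oxidised peroxiredoxins. It had 2118, 2192 and 2231 in Control, against 1922, 2249 and 2579 in DCC-2036 (transcript NM_080725.2). The Control values lay inside the range of the treated values, which reached from the lowest to the highest of the 6 libraries. The log2 fold change of 0.04 (95% interval -0.28 to 0.35, adjusted p = 0.827, limma) turned to -0.15 with equal column totals and to -0.03 with upper-quartile scaling, and without DCC-2036 replicate 3 it was -0.07.

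OSGIN1 encodes an oxidative stress induced growth inhibitor. In Control it had 468, 556 and 605, and in DCC-2036 595, 533 and 387 (transcript NM_182981.2). The groups overlapped, with the highest value in a Control library and the lowest in replicate 3 of DCC-2036. The log2 fold change was -0.12 (95% interval -0.58 to 0.34, adjusted p = 0.605, limma), and it turned to 0.06 when DCC-2036 replicate 3 was left out. The 95% intervals of SRXN1 and OSGIN1 are not limits of detection. The smallest difference that could be called in these genes with 3 libraries per group was not tested. The exact permutation p was 0.7 for SRXN1, 0.6 for OSGIN1 and 0.1, the smallest possible, for each of the other 7 members.

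Replicate 3 of DCC-2036 held the highest value of 5 members, NFE2L2, GCLC, GCLM, TXNRD1 and SRXN1, and it also had the highest column total. Values without this library are given above for the members whose call or direction changed when it was left out.

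**Figure D2:**
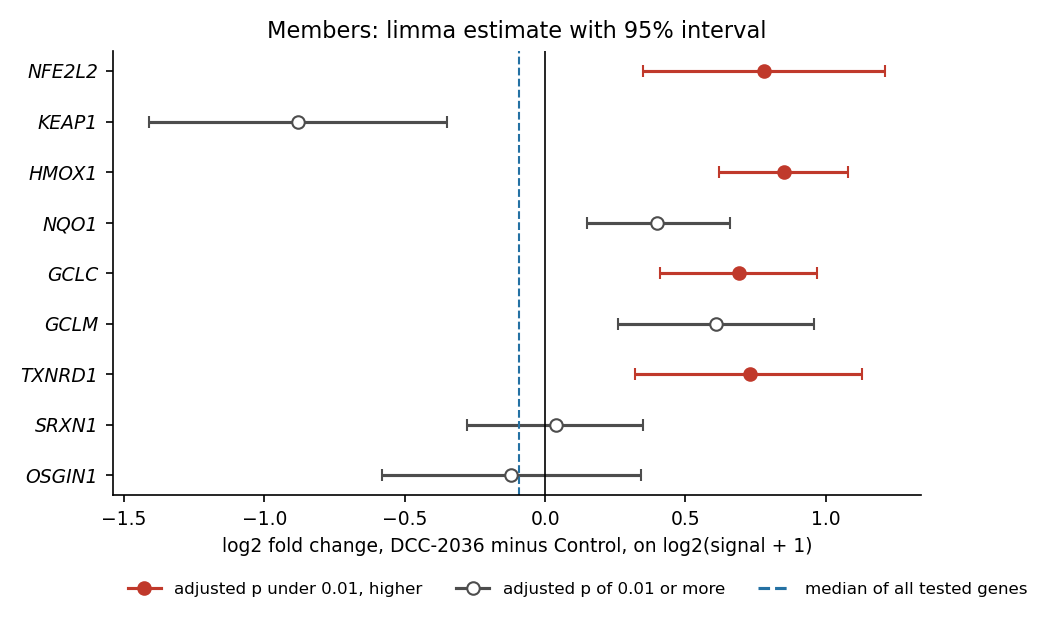
Log2 fold change (x axis, DCC-2036 minus Control on log2(signal + 1)) of each gene with its 95% interval from limma, filled in red where the adjusted p was under 0.01, and a dashed line at the median of all tested genes, -0.092. HMOX1, at 0.85, has the narrowest interval of the 4 called genes, and the intervals of SRXN1 and OSGIN1 include 0.

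**Figure D3:**
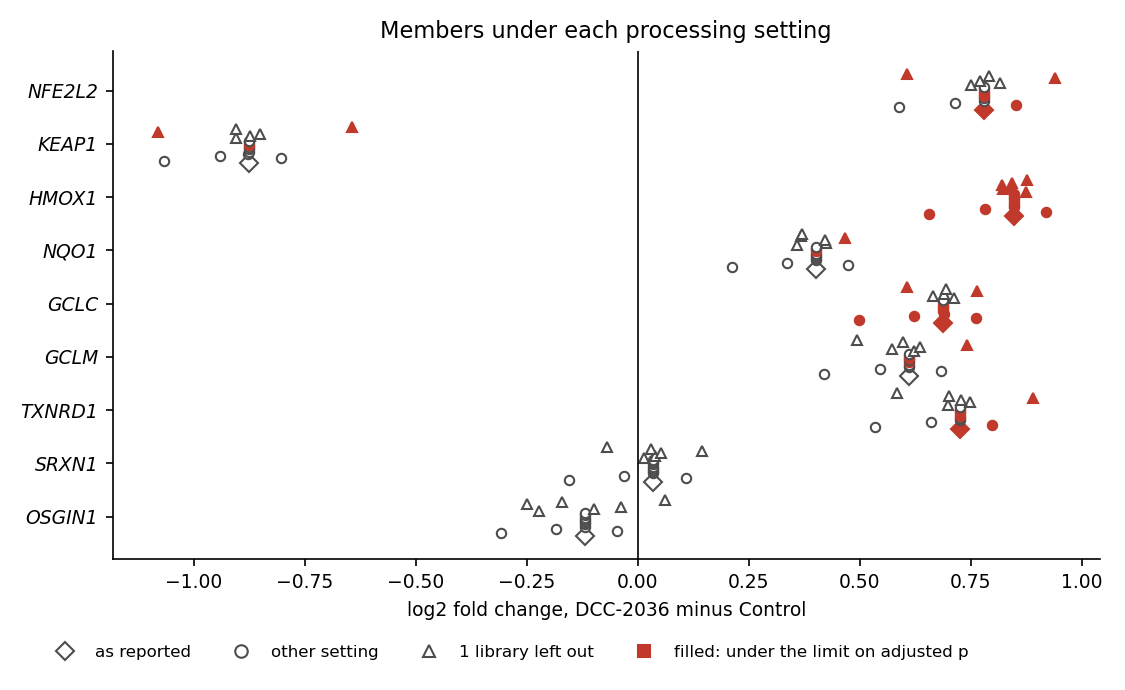
Log2 fold change (x axis) of each gene under 17 processing settings, with a diamond for the value as reported, circles for other settings and triangles for 1 library left out, filled where the gene was called. HMOX1 is filled throughout, SRXN1 and OSGIN1 nowhere, and SRXN1 and OSGIN1 cross 0.

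Transcripts of 1 gene share reads, so they are not independent. With all 32323 transcripts that passed the filter tested separately, 16 of the 28 transcripts of these genes were called higher and 0 lower, beside 19.7% higher and 22.4% lower among all transcripts. All 8 NFE2L2 transcripts had log2 fold changes of 0.77 to 0.79. Of these, 6 were called, and NM_001313902.1 and NM_001145413.3 were just above the limit (adjusted p = 0.0113 and 0.0116, limma). For TXNRD1, which has 7 listed transcripts, all were called, with log2 fold changes of 0.70 to 0.73 and adjusted p of 0.00914 to 0.0099. Both GCLC transcripts were called (0.68 and 0.69). Neither GCLM transcript (0.60 and 0.61, adjusted p = 0.0106 and 0.0111) nor any of the 4 NQO1 transcripts (0.37 to 0.40, adjusted p of 0.0158 to 0.0222) was.

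The second KEAP1 transcript, NM_012289.3, had 2675, 2821 and 2956 in Control, against 1997, 1538 and 1065 in DCC-2036, a log2 fold change of -0.92 (adjusted p = 0.0124, limma). It followed the first library by library. HMOX1, SRXN1 and OSGIN1 have 1 listed transcript each. No member had transcripts that pointed in different directions.

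Beyond the members, 131 other genes of the same biology were taken from 9 lists, and 107 of them were tested. Of these 28 were called higher and 13 lower, and among all tested genes 19.2% were called higher and 22.7% lower, the shares beside which the counts of each list below stand. Those list counts and medians include the members that a list holds, and a gene may be in more than 1 list. Named genes follow from their size of change, their mean signal or their role. Of the 35 named genes outside the members that were called, 16 were called in all 17 settings, and 19 lost the call with at least 1 library left out.

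Of 14 genes for NRF2 and its regulators, all tested, 2 were called higher and 2 lower, with a median log2 fold change of 0.35. Without the members NFE2L2 and KEAP1, 1 of 12 was called higher and 2 lower. Equal totals gave 0 higher, 2 lower and a median of 0.16, and leaving out 1 library gave 0 to 7 higher and 0 to 4 lower, with 0 lower without Control replicate 2 and 4 without DCC-2036 replicate 3. SQSTM1 encodes p62, which binds KEAP1 and carries it to autophagosomes. SQSTM1 signal was 6091, 6455 and 6833 in Control, against 3925, 3853 and 3968 in DCC-2036, so treated libraries were lower and close together. SQSTM1 fell by 0.72 on the log2 scale (adjusted p = 0.00137, limma), and without Control replicate 2 its adjusted p reached the limit (0.01), the highest over all settings. RBX1, the RING subunit of the ubiquitin ligase that KEAP1 serves, fell by 0.91 (adjusted p = 0.00478), from 789 ± 97.7 to 423 ± 80.8 (SD, n = 3). BTRC, the adaptor of a second ligase that can mark NRF2, rose by 0.53 (adjusted p = 0.0036), from 898 ± 31.3 to 1299 ± 47.3. Calls of RBX1 and BTRC were lost without Control replicate 1, 2 or 3 or DCC-2036 replicate 2, at adjusted p of up to 0.0228 and 0.0235, and that of BTRC also with equal totals (0.0289). That of RBX1 was lost too without the filter (0.0116), and both were lost with a replicate block (0.022 and 0.0186).

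BACH1, a repressor that competes with NRF2 for the same elements, had 374, 350 and 318 in Control, against 508, 604 and 951 in DCC-2036. Its treated values were all higher and uneven, and its log2 fold change of 0.93 missed the limit (adjusted p = 0.0139). It was called without DCC-2036 replicate 1 or replicate 3, within adjusted p of 0.00495 to 0.0506 over all settings. MAFG, a small MAF partner of NRF2, overlapped between groups (1447, 1475 and 1471 against 1422, 2125 and 2548, adjusted p = 0.122), and was called only with DCC-2036 replicate 1 left out (adjusted p = 0.00433, highest over all settings 0.286). PGAM5, a mitochondrial phosphatase bound by KEAP1, had a log2 fold change of 0.27 (adjusted p = 0.0483), which was 0.08 with equal totals (adjusted p = 0.491, limma).

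Of 31 glutathione genes, 25 were tested, 6 were called higher and 2 lower, and the median was 0.27. Without the members GCLC and GCLM, 5 of 23 were called higher. With equal totals 5 of the 25 were called higher and the median was 0.08, and leaving out 1 library gave 3 to 9 higher and 1 to 2 lower, with 2 lower only without DCC-2036 replicate 1. SLC7A11, the cystine carrier that brings in the sulphur for glutathione, had the largest change of the list. It had 682, 777 and 573 in Control, against 4682, 6144 and 7660 in DCC-2036. No treated value came near Control, and SLC7A11 rose by a log2 fold change of 3.17 (SE 0.21, adjusted p = 0.00022, limma). SLC3A2, its partner chain at the membrane, rose by 1.12 (adjusted p = 0.000591), from 4888 ± 251 to 10653 ± 996 (SD, n = 3). Both were called in all 17 settings.

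The glutathione-degrading enzymes CHAC1 and CHAC2 moved in opposite directions. CHAC1 had 168, 176 and 198 in Control, against 378, 632 and 1038 in DCC-2036, and rose by 1.79 (adjusted p = 0.00507). CHAC2 had 198, 198 and 199 in Control, against 45.7, 50.0 and 83.5 in DCC-2036, and fell by 1.77 (adjusted p = 0.00122). Neither gene overlapped between groups, and the treated values of CHAC1 were the more uneven. CHAC2 was called in all settings, while CHAC1 was not without Control replicate 1, 2 or 3 or DCC-2036 replicate 2, at an adjusted p of up to 0.0223. Nor was CHAC1 called without the filter on low values (adjusted p = 0.0121, limma). GSTP1, a glutathione transferase, rose by 0.62 with an adjusted p of 0.00979, just under the limit, and was above it without Control replicate 1, 2 or 3 or DCC-2036 replicate 2 or 3, at up to 0.0389. GSTO1, named after its value was seen as the other gene called lower, fell by 0.49 (adjusted p = 0.00898) and lost its call in all 6 omissions, at up to 0.0446.

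In the thioredoxin and peroxiredoxin list, 17 of 18 genes were tested, 4 were called higher and 2 lower, and the median was 0.13. Without the members TXNRD1 and SRXN1, 3 of 15 were called higher. With equal totals 3 of the 17 were called higher and the median was -0.09, and leaving out 1 library gave 1 to 5 higher and 2 lower each time. TXN, thioredoxin itself, had 3192, 3578 and 3505 in Control, against 5036, 6133 and 7762 in DCC-2036. It rose by 0.86 (adjusted p = 0.00571, limma), beside its reductase TXNRD1, and every treated library was above Control. TXNL1, a proteasome-bound thioredoxin-like protein, rose by 1.10 (adjusted p = 0.00209), and SESN2, a stress-induced sestrin, by 1.69 (adjusted p = 0.000193). TXN lost its call without Control replicate 1, 2 or 3 or DCC-2036 replicate 2 (adjusted p up to 0.0259) and TXNL1 without Control replicate 1 or DCC-2036 replicate 2 (up to 0.0112).

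MSRB1, a selenoprotein that reduces oxidised methionine, had the most negative log2 fold change of this list. It had 662, 763 and 846 in Control, against 218, 175 and 114 in DCC-2036, groups that lay far apart, and fell by 2.20 (adjusted p = 0.00079). TXN2, the mitochondrial thioredoxin and the other gene called lower, named after its value was seen, fell by 0.77 (adjusted p = 0.00133), from 1420 ± 100 to 829 ± 27.6 (SD, n = 3). Cytosolic and mitochondrial thioredoxin thus changed in opposite directions. Of the other named genes, PRDX1, a peroxiredoxin, had a log2 fold change of 0.25 (adjusted p = 0.0633), which was 0.06 with equal totals (adjusted p = 0.583, limma). TXNIP, which binds and inhibits thioredoxin, had at most 14.4 in any library and was not tested.

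For quinone, aldehyde and carbonyl detoxification, 10 of 17 genes were tested, 2 were called higher and 1 lower, and the median was 0.30. The member NQO1 is among the 10. With equal totals 1 was called higher and the median was 0.11, and leaving out 1 library gave 0 to 3 higher and 1 lower each time. The other 7 of 17 stayed below 10 in all 6 libraries. NQO2, a quinone reductase related to NQO1, had 537, 539 and 546 in Control, against 208, 199 and 220 in DCC-2036. Both groups were tight, and NQO2 fell by 1.37 (adjusted p = 0.000237, limma) while all treated values of NQO1 were above Control. The aldo-keto reductases AKR1B1 and AKR1A1 rose by 0.94 and 0.54 (adjusted p = 0.00235 and 0.00485). AKR1B1 lost its call without Control replicate 1 or 2 or DCC-2036 replicate 2 (up to 0.0126), and AKR1A1 without these or Control replicate 3 (up to 0.0242) and with equal totals.

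Among 17 haem and iron genes, 15 were tested, 7 were called higher and 2 lower, and the median was 0.45. Without the member HMOX1, 6 of 14 were called higher. HMOX2, the other haem oxygenase gene of the list, is left out of the count of named genes above. It had 1058, 1190 and 1191 in Control, against 2105, 1924 and 1604 in DCC-2036. HMOX2 rose by 0.70 (adjusted p = 0.00477, limma), and its calls under the alternatives are not given. With equal totals 4 of the 15 were called higher and 3 lower and the median was 0.26, and leaving out 1 library gave 3 to 8 higher and 1 to 2 lower. FTH1, the ferritin heavy chain that stores iron, had 49980, 49979 and 52109 in Control, against 79660, 93614 and 118784 in DCC-2036. All treated values were higher, with replicate 3 the highest, and FTH1 rose by 0.92 (adjusted p = 0.00333, limma). Its call was lost without Control replicate 1, 2 or 3 or DCC-2036 replicate 2 (adjusted p up to 0.0165). FTL, the light chain, had a log2 fold change of 0.50 (adjusted p = 0.0351), and was called with DCC-2036 replicate 1 left out (adjusted p = 0.005, highest over all settings 0.111). SLC11A2, an iron importer, rose by 0.87 (adjusted p = 0.001).

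The related membrane carriers FLVCR1 and FLVCR2 went opposite ways. FLVCR1 had 684, 619 and 582 in Control, against 231, 196 and 198 in DCC-2036, and fell by 1.59 (adjusted p = 0.00028). FLVCR2 had 41.4, 42.2 and 34.9 in Control, against 160, 115 and 113 in DCC-2036, and rose by 1.67 (adjusted p = 0.000592). Neither pair of groups overlapped, and FLVCR1, FLVCR2 and SLC11A2 were called in all 17 settings. ABCB6, a porphyrin transporter and the other gene called lower, named after its value was seen, fell by 0.84 (adjusted p = 0.00208), but not past the limit without Control replicate 1, 2 or 3 or DCC-2036 replicate 2 (up to 0.0121).

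NADPH supply was covered by 13 genes, of which 11 were tested. By limma 4 were called higher and 0 lower, with 2 lower at an unadjusted p under 0.05, and the median was 0.08. Equal totals gave 1 higher and 2 lower and a median of -0.11, and leaving out 1 library gave 1 to 4 higher and 0 to 1 lower. NADK, which makes NADP from NAD, had 1312, 1332 and 1383 in Control, against 2329, 2461 and 2227 in DCC-2036, with tight groups. It rose by 0.80 (adjusted p = 0.000958) and was called in all settings. PGD and TALDO1 of the pentose phosphate pathway rose by 0.63 and 0.55 (adjusted p = 0.00278 and 0.00358) and IDH1 by 0.48 (adjusted p = 0.00981). TKT, a transketolase of the same pathway, had a log2 fold change of 0.08 (adjusted p = 0.542), which turned to -0.11 with equal totals. The calls of PGD, TALDO1 and IDH1 were lost with equal totals (adjusted p = 0.0122, 0.0112 and 0.105). They were lost too without Control replicate 1, Control replicate 2 or DCC-2036 replicate 2, those of TALDO1 and IDH1 also without Control replicate 3, and that of IDH1 also without DCC-2036 replicate 1. Over these omissions the adjusted p reached 0.0178 for PGD, 0.021 for TALDO1 and 0.0433 for IDH1.

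Of 14 genes for superoxide and hydrogen peroxide, 9 were tested, 2 were called higher and 0 lower by limma, with 1 lower at an unadjusted p under 0.05, and the median was 0.27. With equal totals 2 were called higher and 1 lower and the median was 0.08, and the counts of 2 higher and 0 lower held with any 1 library left out. CAT, catalase, had 640, 698 and 698 in Control, against 1348, 1475 and 1588 in DCC-2036. SOD2, the mitochondrial superoxide dismutase, had 1933, 2063 and 1973 in Control, against 3647, 4003 and 4254 in DCC-2036. In both genes the groups were far apart, CAT rose by 1.11 (adjusted p = 0.000523) and SOD2 by 0.99 (adjusted p = 0.000643), and both were called in all 17 settings. SOD1, the cytosolic enzyme, had a log2 fold change of 0.27 (adjusted p = 0.104), which was 0.08 with equal totals (adjusted p = 0.519, limma).

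In the list for the OSGIN family and ferroptosis, 9 of 10 genes were tested, with FTH1 called higher, 3 called lower and a median of -0.02. The member OSGIN1 is among the 9. With equal totals the counts were the same and the median was -0.26, and leaving out 1 library gave 0 to 2 higher and 0 to 3 lower. The number called lower was 2 with median-of-ratios scaling or a pseudocount of 0.1, and 0 without the filter or with a replicate block. The 3 called lower were AIFM2, which reduces coenzyme Q at the plasma membrane (fell by 0.86, adjusted p = 0.00961), DHODH, which does so in mitochondria (fell by 0.64, adjusted p = 0.00841), and LPCAT3, which loads phospholipids with polyunsaturated fatty acids (fell by 0.62, adjusted p = 0.00721). Their calls were lost without Control replicate 1, 2 or 3 or DCC-2036 replicate 2 (up to 0.0388, 0.0376 and 0.0317), and those of DHODH and LPCAT3 also without DCC-2036 replicate 3. GPX4, the peroxidase for lipid hydroperoxides, had 3454, 3960 and 4167 in Control, against 4591, 5246 and 6152 in DCC-2036, a log2 fold change of 0.46 (adjusted p = 0.0311). Its treated values were above Control without passing the limit.

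SLC7A11, CHAC1 and SESN2 are also known targets of ATF4, the factor of the amino acid response. Of 12 genes of that programme, 11 were tested, 8 were called higher and 1 lower, beside 19.2% and 22.7% of all tested genes, and the median was 1.22. SLC7A11, CHAC1 and SESN2 are among the 8, so the count and the median partly repeat values given above. None of the members is in this list. With equal totals the counts were the same and the median was 1.03, and leaving out 1 library gave 6 to 8 higher and 1 lower each time. ATF4 itself rose by 0.78 (adjusted p = 0.00316, limma), from 5844 ± 171 to 10134 ± 1502 (SD, n = 3). ATF3, a stress-induced factor, rose by 2.74 (adjusted p = 0.000265) and ASNS, asparagine synthetase, by 2.43 (adjusted p = 0.000204), both in all 17 settings. The gene called lower was PPP1R15A, named after its value was seen, which fell by 1.36 (adjusted p = 0.000272). ATF4 lost its call without Control replicate 1, 2 or 3 or DCC-2036 replicate 2 (adjusted p up to 0.0164).

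**Figure D4:**
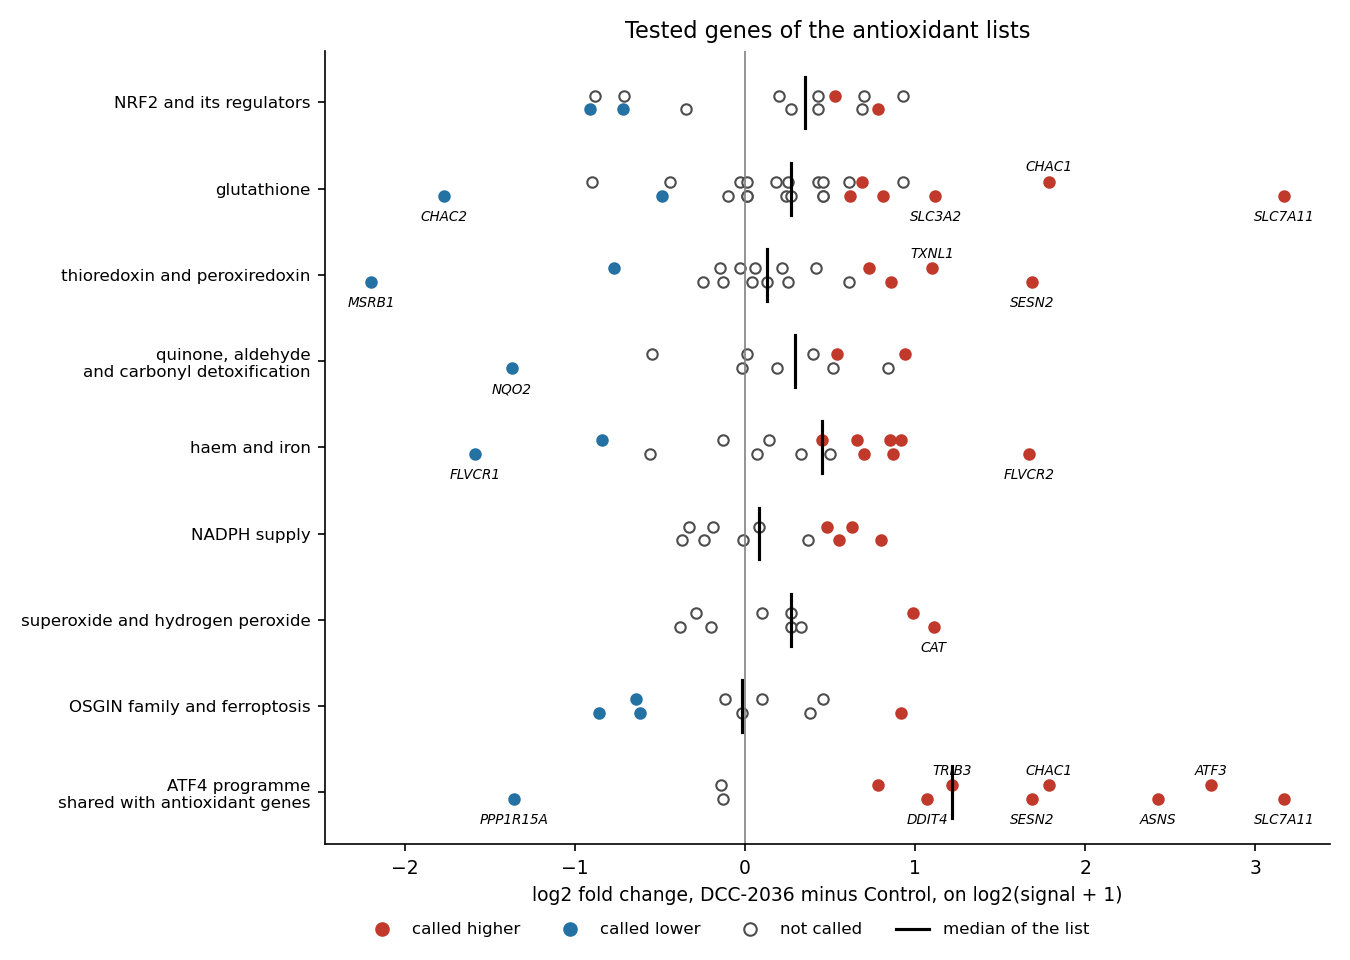
Log2 fold change (x axis, DCC-2036 minus Control) of every tested gene of the 9 lists, each list on its own line, in red where called higher, in blue where called lower and open where not called, with a bar at the median of the list and names at absolute changes of 1 or more among called genes. Most medians lie between -0.02 and 0.45, and that of the ATF4 programme is 1.22.

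The tested genes most like NFE2L2 over the 6 libraries, by Pearson correlation of log2(signal + 1), were NPM1 (r = 0.9998, not called), GRPEL2 (0.9998) and NCBP2 (0.9996, not called). Those most like HMOX1 were TAF11 (0.9986), TOR1AIP2 (0.9984) and LLGL1 (0.9981). With 6 libraries in 2 groups high correlations are common, since 1731 tested genes had an r above 0.95 with NFE2L2 and 1183 with HMOX1. NPM1 had 29473, 31968 and 30227 in Control, against 39268, 46065 and 55783 in DCC-2036, spread out with treatment as NFE2L2 was. TAF11 had 618, 593 and 599 in Control, against 873, 857 and 855 in DCC-2036, with tight groups as for HMOX1.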

How the data were processed

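RNA of 3 Control and 3 DCC-2036 libraries was compared, with groups taken from the sample titles. The authors deposited 1 signal value per RefSeq transcript and library, adjusted to a common depth and not in whole numbers, so the depth of each library is unknown. Columns with the authors' own log2 fold change per transcript were not used. Neither were the p-value and q-value that the authors deposited beside it. The paper cites a reference for its RNA-seq methods, and the aligner, counter and genome build are not given in the sources used here. There were 0 other sample columns.

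The transcript with the highest mean was kept per symbol, and the 12725 of 19223 symbols reaching 10 in 3 or more libraries were tested on log2(value + 1) with limma 3.58.1 in R 4.3.3, without covariates. The code was tested on simulated data. Tables were made in Python 3.11.15 (pandas 2.3.3, numpy 2.4.6), exact permutation tests with scipy 1.17.1 and plots with matplotlib 3.10.9. Alternatives were 3 scalings, other filters, a pseudocount of 0.1, every transcript tested, a variance trend, a limit of 0.05, a replicate block and each library left out.

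Members and lists were chosen with earlier results of these data known. Named genes were the members, then per list up to 4 called genes with the largest change and a mean of at least 10, up to 2 with the highest mean, and genes chosen for their role, among them BACH1, SQSTM1, MAFG, SLC7A11, TXN, PRDX1, FTH1 and TXNIP. Genes behind small counts, CUL3 and HMOX2 were named after their values were seen.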

Additional observations from a re-analysis of the deposited data

How the results depend on the processing

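HMOX1 was called under all 16 alternatives. Members called higher, 4 as reported, were 2 with equal column totals, upper-quartile scaling, a pseudocount of 0.1 or no filter, beside 1716, 2168, 2409 and 1749 of all genes, and 1 to 6 with a library left out. Members called lower, 0 as reported, were 1 with a variance trend or a limit of 0.05, and 0 to 1 with a library left out. The median of the members, 0.61, was 0.42 with equal totals, and 0.49 to 0.74 with a library left out. With every transcript tested, which tests more items, 6379 were called higher and 7250 lower, and with a library left out 929 to 2717 genes higher and 1502 to 3444 lower. Equal replicate numbers did not pair the libraries (correlations of deviations 0.081, -0.035 and -0.003). Only replicate 1 of the Control libraries was most like its own number. With a replicate block, which leaves fewer degrees of freedom, 1202 genes were called higher and 1909 lower, 1 member higher, and of the list genes 17 higher and 8 lower. NFE2L2, GCLC and TXNRD1 were not called with it (adjusted p = 0.0191, 0.0137 and 0.0182). The list genes and other named genes were put through the alternatives after the data were seen. List genes called higher, 28 as reported, were 45 at a limit of 0.05 and 13 to 36 with a library left out. Those called lower, 13 as reported, were 20 at that limit, 8 without the filter and 6 to 13 with a library left out. Among named genes, AIFM2, AKR1A1, CHAC1, DHODH, GSTO1, GSTP1, IDH1, LPCAT3, RBX1 and TXN lost their calls without the filter. The log2 fold change of OSGIN1 turned to 0.0614 without DCC-2036 replicate 3, with a range of -0.249 to 0.0614 over such omissions. That of SRXN1 turned to -0.155 with equal totals, -0.0302 with upper-quartile scaling and -0.0686 without DCC-2036 replicate 3, with a range of -0.0686 to 0.144 over omissions, and that of TKT to -0.111 with equal totals. The causes of the other changes were not tested. Depth per library is unknown, so its limit on low genes cannot be given.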
